A study of Mus musculus with 48 samples.

Results

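The genes described here are 10 genes of glucose uptake, glycolysis and the response to low oxygen: Slc2a1, Slc16a3, Hk2, Pfkp, Pgk1, Pgam1, Ldha, Pdk1, Egln3 and Ndufa4l2. They were taken by symbol from the platform annotation, with the probe of highest mean over all 48 arrays where a gene had several. All 10 had a probe, among 20738 genes on the array. The study set mouse pulmonary arterial smooth muscle cells (PASMC) beside alveolar epithelial type II cells (AECII) on single-colour arrays, in 6 groups of 8 arrays. PASMC_18mg and AECII_18mg cells had 24 h with 15% of an e-cigarette vapour extract whose liquid held 18 mg/ml nicotine. For PASMC_0mg and AECII_0mg cells the liquid held 0 mg/ml at the same share and time, and the labels give PASMC_Ctrl and AECII_Ctrl as room air controls. All cells were primary cells of C57Bl/6J mice at 21% O2 and 5% CO2. PASMC were isolated with iron particles and used at passage 1 in 15% serum, whereas AECII were exposed 24 h after isolation in 10% serum, so cell type, serum, passage and time in culture cannot be told apart. The study's design text gives 8 mice, and the labels do not say which array came from which mouse.

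Glycolysis turns glucose into pyruvate in the cytosol, and the pyruvate is either burned in mitochondria or reduced to lactate and exported. Hypoxia-inducible factors (HIF) are transcription factors whose alpha subunits are hydroxylated and destroyed when oxygen is plentiful. When oxygen falls they raise the transcription of glucose carriers, most glycolytic enzymes and the genes that hold pyruvate back from mitochondria. In pulmonary arterial smooth muscle this response is known for its part in the remodelling of vessels under chronic hypoxia.

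Each deposited value is a log2 intensity after quantile normalisation, with an array median of 2.97 to 2.98 and a highest value of 15.89. Values near that median lie close to background. A difference below is a log2 difference with its standard error (SE) from a limma fit, and a gene was called at a Benjamini-Hochberg adjusted p under 0.05 over all genes tested, two-sided. Marker genes fitted the labels in part. Acta2, the smooth muscle actin, averaged 14.98 in PASMC_Ctrl and 11.71 in AECII_Ctrl. Sftpc, the surfactant protein that defines type II cells, averaged 5.77 in PASMC_Ctrl and 14.33 in AECII_Ctrl, and exceeded 6 in 4 PASMC_18mg, 4 PASMC_0mg and 3 PASMC_Ctrl arrays. Of 11 type II markers tested 10 were lower in PASMC_Ctrl than in AECII_Ctrl and 1, Etv5, was higher. All 8 fibroblast markers tested were also higher in PASMC_Ctrl. AECII_Ctrl carried the airway marker Scgb1a1 at 15.73, but Scgb3a2 at 2.19, with a mean of 7.92 over 7 airway markers. The mean over 5 mesothelial markers in AECII_Ctrl was 10.45. Of 10 macrophage markers tested 1 was higher and 3 lower in PASMC_Ctrl, and Marco averaged 9.82 there and 7.32 in AECII_Ctrl. In 3 PASMC arrays, array 5 of PASMC_18mg, array 5 of PASMC_0mg and array 2 of PASMC_Ctrl, the mean of 8 fibroblast markers was 9.58 to 9.94 and that of 8 epithelial markers 5.96 to 6.61, against 11.27 to 12.41 and 2.92 to 5.79 in the other 21. In such bulk samples fewer cells of a type and less RNA per cell cannot be told apart.

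The first comparison set PASMC beside AECII in control cultures. All 10 genes were higher in PASMC_Ctrl than in AECII_Ctrl, where 31.3% of the 14775 genes tested were called higher and 27.9% lower. One of them, Ndufa4l2, lay at background in AECII and passed the filter on low values through its PASMC arrays alone, so it had to differ and is left out of the counts that follow. Of the other 9 genes, 7 had every PASMC_Ctrl array above every AECII_Ctrl array, a pattern that 14.8% of the genes tested showed. The median difference of the 9 genes was 0.96, and that of all genes tested was 0.04.

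Both carriers were far higher in PASMC. Slc2a1, which encodes the glucose carrier GLUT1, had a lowest, median and highest value of 11.47, 12.20 and 12.37 in PASMC_Ctrl, against 10.25, 10.49 and 10.89 in AECII_Ctrl. The difference was 1.53 (SE 0.12, adjusted p = 6.39e-15), a fold of 2.88. Slc16a3 encodes MCT4, the carrier that exports lactate from cells with high glycolytic flux. Its values were 11.93, 12.72 and 13.21 in PASMC_Ctrl, against 8.11, 8.74 and 9.46 in AECII_Ctrl. The gap between the highest AECII array and the lowest PASMC array was wider than the whole range of either group. The difference was 3.79 (SE 0.21, adjusted p = 5.35e-20), and a second Slc16a3 probe gave 3.76.

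Among the 10 genes and on the chosen probes, the glycolytic enzymes differed less than the carriers. The probes of Pgk1, Pgam1 and Ldha were bright, with means over all arrays of 13.38, 13.63 and 14.86. Whether this brightness narrowed their differences was not tested. Hk2, the hexokinase that traps glucose in the cell by phosphorylation, had values of 9.16, 9.32 and 9.70 in PASMC_Ctrl and 8.39, 9.02 and 9.37 in AECII_Ctrl. These ranges overlapped, with 3 of 8 PASMC_Ctrl arrays above all AECII_Ctrl arrays, and the difference was 0.39 (SE 0.12, adjusted p = 0.00495). Without the PASMC arrays with Sftpc above 6 it was 0.32 and no longer called (adjusted p = 0.0625; the adjusted p ranged over 0.00326 to 0.0625 among the alternatives tried).

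Pfkp encodes the platelet form of phosphofructokinase, the enzyme of the committed step. Its values were 6.82, 7.19 and 7.39 in PASMC_Ctrl and 6.35, 6.67 and 6.80 in AECII_Ctrl, so that the groups only just failed to overlap, and the difference was 0.58 (SE 0.15, adjusted p = 0.000999). Pgk1, phosphoglycerate kinase, catalyses the first step of the pathway that yields ATP. It reached 13.69, 13.94 and 13.99 in PASMC_Ctrl, against 12.75, 12.96 and 13.08 in AECII_Ctrl, a tight gene in both cell types with a difference of 0.96 (SE 0.06, adjusted p = 1.31e-17). Pgam1, the phosphoglycerate mutase of most tissues, had 13.85, 14.02 and 14.22 in PASMC_Ctrl and 13.19, 13.33 and 13.40 in AECII_Ctrl. It differed by 0.71 (SE 0.07, adjusted p = 4.44e-12), again without overlap.

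Ldha, the lactate dehydrogenase subunit that reduces pyruvate to lactate, was among the brightest probes on the array. The chosen probe read 14.86, 15.00 and 15.20 in PASMC_Ctrl and 14.64, 14.75 and 14.91 in AECII_Ctrl, with 7 of 8 PASMC_Ctrl arrays above all AECII_Ctrl arrays. The difference was 0.25 (SE 0.06, adjusted p = 0.000243). Dimmer Ldha probes, with means over all arrays of 12.54 and 10.10, gave larger differences of 0.76 and 1.09. The size of the Ldha difference therefore depended on the probe, and its direction did not among these 3 probes.

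Of the genes that act on mitochondria, Pdk1 encodes a kinase that inactivates pyruvate dehydrogenase and so keeps pyruvate out of the citric acid cycle. Its values were 6.41, 7.58 and 8.73 in PASMC_Ctrl, against 4.01, 4.70 and 5.61 in AECII_Ctrl. The difference was 2.70 (SE 0.29, adjusted p = 4.44e-11), a fold of 6.48. Ndufa4l2 is a paralogue of the respiratory chain subunit gene Ndufa4, is a HIF target and lowers mitochondrial oxygen use. It had 6.96, 10.83 and 12.24 in PASMC_Ctrl, against 2.04, 2.23 and 3.21 in AECII_Ctrl. AECII values thus sat around the array median and PASMC values far above it. The fitted difference was 7.77 (SE 0.61), but with the AECII level at background it is not the size of a change, and neither a fold nor a test was read from it. Ndufa4 itself differed by -0.16 (SE 0.09, adjusted p = 0.139), which did not pass the test.

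Egln3, also called PHD3, is a prolyl hydroxylase that marks HIF alpha subunits for destruction and is itself raised by HIF. It had 8.19, 8.92 and 9.09 in PASMC_Ctrl and 4.89, 6.16 and 7.01 in AECII_Ctrl. The difference was 2.68 (SE 0.24, adjusted p = 1.37e-13), with 2.49 from a second probe.

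**Figure D1:**
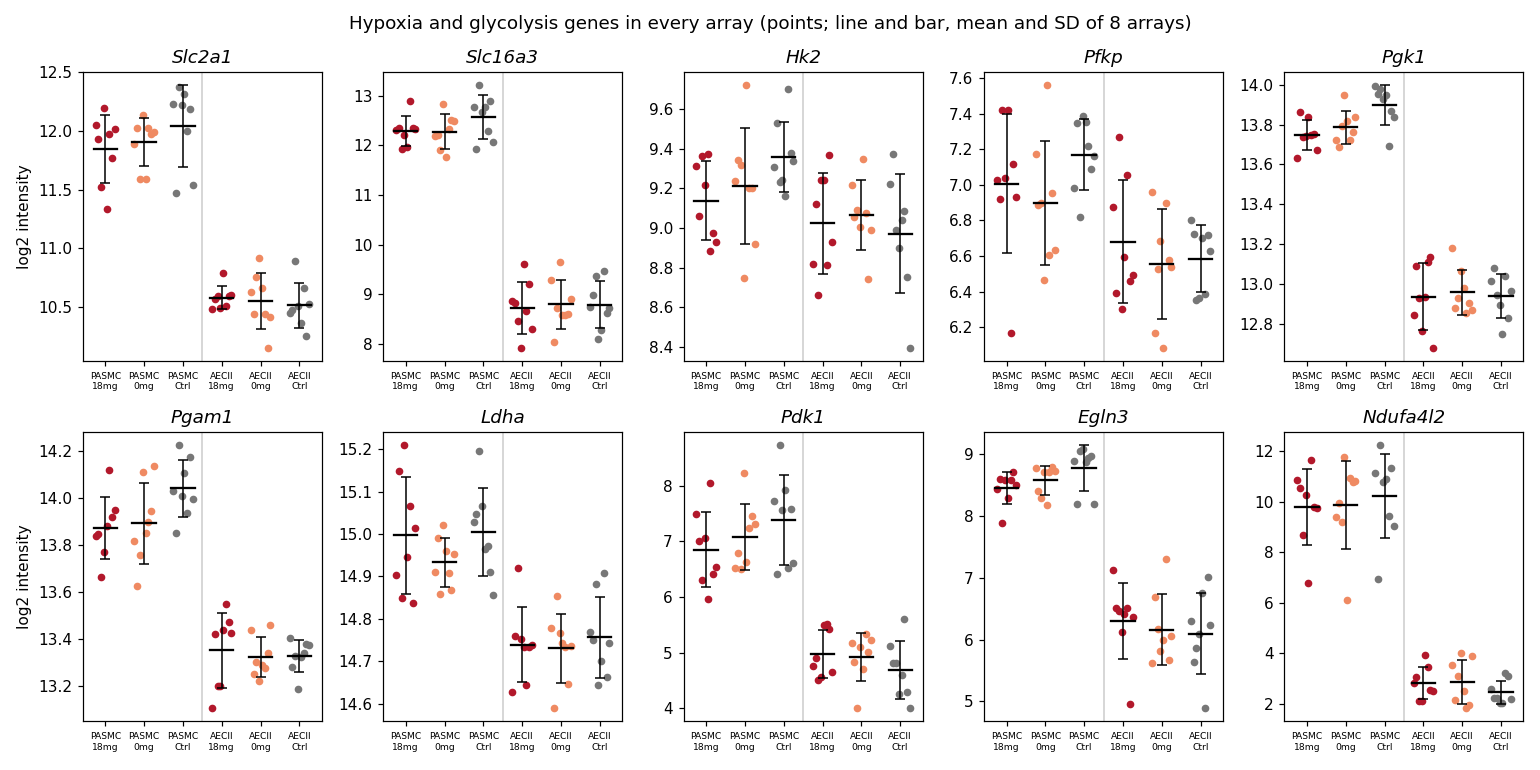
Log2 intensity of each of the 10 genes in every array (points), with the mean (line) and SD (bar) of 8 arrays for PASMC_18mg, PASMC_0mg, PASMC_Ctrl, AECII_18mg, AECII_0mg and AECII_Ctrl from left to right; vertical axes differ between panels. For 7 genes, among them Ndufa4l2 with its AECII values at background, all 24 PASMC arrays lie above all 24 AECII arrays, whereas Hk2, Pfkp and Ldha overlap. The share of all genes with this pattern over 24 arrays each was not computed.

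The promoters show what some of the members share in sequence. HIF binds a short core, and the windows were searched for ACGTG and GCGTG on both strands, where CACGTG reads as ACGTG on each strand and counts 2 times. The windows are those of the RefSeq promoter table for GRCm38.p6, 250 bases before to 50 after a gene's start, and 9 of the 10 genes have one. All 9 held at least 1 match of either kind, where 46.7% of genes had a match in any window and 43.8% of all 32851 windows held a match. At least 1 ACGTG was found for 7 of the 9, where 19.6% of windows held an ACGTG. The share of genes with an ACGTG in any window was not computed. The genes were picked for glucose uptake, glycolysis and the response to low oxygen, so these counts are a description. A match is a run of letters and not a bound site. Below, matches are in capitals, on the gene's strand, for Slc16a3 as the carrier with the largest difference, Ldha as the gene with the most matches, and Pgk1 and Hk2 as enzymes whose ranges did not and did overlap between PASMC_Ctrl and AECII_Ctrl.
Slc16a3, chr11:120948817-120949116, plus strand: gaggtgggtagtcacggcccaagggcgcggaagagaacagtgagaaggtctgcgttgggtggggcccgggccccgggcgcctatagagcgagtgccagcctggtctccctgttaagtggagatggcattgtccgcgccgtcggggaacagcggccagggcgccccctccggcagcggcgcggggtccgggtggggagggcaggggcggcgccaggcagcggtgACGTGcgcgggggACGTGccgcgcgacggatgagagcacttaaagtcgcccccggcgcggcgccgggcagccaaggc
Pgk1, chrX:106186850-106187149, plus strand: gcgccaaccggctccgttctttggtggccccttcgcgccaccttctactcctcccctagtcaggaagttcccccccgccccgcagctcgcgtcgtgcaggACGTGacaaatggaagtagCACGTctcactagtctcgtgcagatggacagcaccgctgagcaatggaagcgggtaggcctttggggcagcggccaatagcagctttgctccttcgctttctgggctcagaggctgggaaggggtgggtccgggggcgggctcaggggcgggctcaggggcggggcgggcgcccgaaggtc
Ldha, chr7:46845554-46845853, plus strand: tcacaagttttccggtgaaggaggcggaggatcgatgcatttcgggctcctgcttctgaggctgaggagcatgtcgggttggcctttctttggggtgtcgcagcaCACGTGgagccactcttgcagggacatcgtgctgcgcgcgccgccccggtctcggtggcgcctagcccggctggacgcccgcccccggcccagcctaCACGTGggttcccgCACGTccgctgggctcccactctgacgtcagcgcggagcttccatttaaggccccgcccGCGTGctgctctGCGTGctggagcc
Hk2, chr6:82774405-82774704, minus strand: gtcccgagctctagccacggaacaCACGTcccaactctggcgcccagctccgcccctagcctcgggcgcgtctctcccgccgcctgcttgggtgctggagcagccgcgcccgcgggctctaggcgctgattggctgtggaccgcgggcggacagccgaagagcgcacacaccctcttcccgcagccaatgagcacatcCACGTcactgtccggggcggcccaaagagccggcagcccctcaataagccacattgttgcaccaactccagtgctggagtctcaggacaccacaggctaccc
Slc16a3 held 2 ACGTG matches close before the start, Pgk1 held 2 in opposite orientations, and Hk2 held 2. Ldha had the most, 7 matches of which 5 were ACGTG in the window shown, while 3.86% of all windows held 4 or more. Its other window held 2, both GCGTG. Among the others Slc2a1 had 2, Pgam1 3, Egln3 1 and Pfkp 4 matches, the last all GCGTG, and Pdk1 had 2 in one of its windows and none in the other.

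The same comparison in cells given extract used other arrays, which may come from the same mice as the control cultures. It is therefore not a repeat known to be on other animals. Beside Ndufa4l2, 7 of 9 genes were called higher in PASMC_18mg than in AECII_18mg (background 30.3% higher), and 7 of 9 in PASMC_0mg than in AECII_0mg (background 30.9% higher). The genes not called were Hk2 and Pfkp in both. Hk2 differed by 0.11 (SE 0.12, 95% interval -0.13 to 0.36, adjusted p = 0.436) in PASMC_18mg minus AECII_18mg and by 0.14 (SE 0.12, -0.10 to 0.39, adjusted p = 0.31) in PASMC_0mg minus AECII_0mg. Pfkp differed by 0.33 (adjusted p = 0.0649) and 0.34 (adjusted p = 0.0509) in the same order of comparisons. It passed the test with array weights in both, and with the 18 mg/ml extract also when any 1 of 3 arrays was left out, most of all without PASMC_18mg array 6 (0.44). With the 0 mg/ml extract it passed when any 1 of 6 arrays was left out (0.36 to 0.40).

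Among the 9 genes Slc16a3 differed most in all 3 conditions, by 3.56 in 18mg, 3.48 in 0mg and 3.79 in control cultures (SE 0.21 each). Pdk1 differed by 1.87, 2.17 and 2.70 (SE 0.29 each), and Egln3 by 2.14, 2.41 and 2.68 (SE 0.24 each). For Slc2a1 the differences were 1.27, 1.35 and 1.53 (SE 0.12 each). Egln3 and Pdk1 lay within 1 SE of each other in control cultures. For each of these 4 genes the largest of the 3 values was that of control cultures, but the test of that change, the difference of responses, was not passed for any of them.

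**Figure D2:**
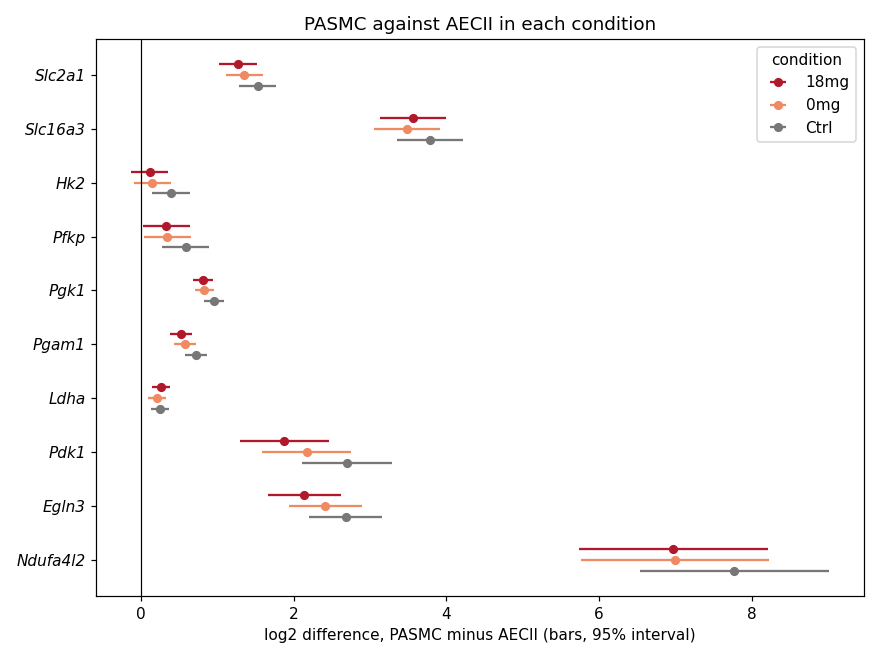
PASMC minus AECII log2 difference of each gene (horizontal axis) with its 95% interval, in 18mg, 0mg and control cultures. The Ndufa4l2 points, for which AECII lies at background, are at 6.97 to 7.77, Slc16a3 is at 3.48 to 3.79, and the Hk2 intervals include 0 in both extract conditions.

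Among other genes of the pathway the picture was mixed. Of 141 such genes tested from 6 lists 63 were higher and 25 lower in PASMC_Ctrl than in AECII_Ctrl, with a median of 0.24. Of all genes tested 31.3% were higher and 27.9% lower. Unlike the counts of the members, these counts include genes at background in AECII or in PASMC, such as Hif3a and Slc2a5, which had to differ. Among 15 other glucose and lactate carriers and their partners 6 were higher and 5 lower (median -0.02), shares close to those of all genes. Slc2a8, an intracellular glucose carrier, was higher by 2.80 (SE 0.13), Slc2a13, a myo-inositol carrier, by 1.84 (SE 0.28), Slc2a10 by 0.84 and the insulin-responsive Slc2a4 by 0.83. Lower were the fructose carrier Slc2a5 (-4.39, SE 0.19), the monocarboxylate carrier partner Emb (-2.17), the pyruvate and lactate carrier Slc16a7 (-1.40) and the glucose carrier Slc2a3 (-0.89). Slc2a5 and Slc16a7 averaged 6.85 and 4.05 in AECII_Ctrl and so lay near background in PASMC_Ctrl. Slc2a4 lay near background in AECII_Ctrl, at 3.25. For these carriers the difference is not the size of a change. 

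Glycolytic enzymes other than the members went higher in 13 of 24 and lower in 4 (median 0.47), beside 31.3% and 27.9% of all genes tested. The neuronal enolase gene Eno2 was higher by 3.86 (SE 0.30), the muscle and liver phosphofructokinases Pfkm and Pfkl by 2.14 (SE 0.18) and 1.74 (SE 0.20), and the muscle mutase Pgam2 by 1.89 from a level near background in AECII. Pfkfb3, which makes the activator of phosphofructokinase, was higher by 1.02 (SE 0.17, adjusted p = 7.47e-07). The hexokinase-related Hkdc1 (-2.16), Bpgm (-1.15), Pfkfb1 (-0.69) and Tigar (-0.62) were lower. Hkdc1 averaged 4.435 in AECII_Ctrl and so lay near background in PASMC_Ctrl.

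Around pyruvate dehydrogenase 3 of 11 genes were higher and 3 lower (median 0.05), near the shares of all genes. The higher ones were the kinases Pdk2 (1.73, SE 0.31) and Pdk4 (1.51, SE 0.32) and the phosphatase Pdp1 (0.87, SE 0.18). The lower ones were the subunits Dlat (-0.43), Dld (-0.22) and Pdhb (-0.20). The regulators Pdk3 and Pdp2 and the subunits Pdha1 and Pdhx were not called. The Pdhb call was lost with the mean of all probes (-0.17, adjusted p = 0.203) and the Dld call without PASMC arrays with Sftpc above 6 (-0.16, adjusted p = 0.142).

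Of 15 HIF subunits and oxygen sensors 4 were higher and 3 lower (median 0.19), no more in either direction than the 31.3% and 27.9% of all genes. Hif1a, the alpha subunit with the widest expression, was higher in PASMC_Ctrl by 1.57 (SE 0.17, adjusted p = 3.15e-11), or by 0.91 (SE 0.12) with the mean of all its probes, while Epas1, which encodes the alpha subunit HIF-2alpha, was lower by 1.06 on the log2 scale (difference -1.06, SE 0.23, adjusted p = 1.2e-04). P4htm (1.44), Arnt2 (1.38) and Hif3a (0.87) were also higher, and the asparaginyl hydroxylase gene Hif1an (-1.09) and the coactivator Crebbp (-0.57) lower. Hif3a lay at background in AECII, with a mean of 2.38 in AECII_Ctrl. It passed the filter through its PASMC arrays, so its difference is not the size of a change.

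Other HIF target genes were the group with the largest share of higher calls, 27 of 43, with 5 lower (median 0.76). Of all genes tested 31.3% were higher and 27.9% lower. Tmem45a was higher by 4.83 (SE 0.29), the collagen-modifying enzymes Plod2 and P4ha1 by 2.89 (SE 0.28) and 2.71 (SE 0.27), and the mitophagy receptor Bnip3 by 2.58 (SE 0.25). Vegfa, the endothelial growth factor, was higher by 1.37 (SE 0.15, adjusted p = 8.07e-11) and the respiratory subunit isoform Cox4i2 by 1.31 (SE 0.28, adjusted p = 8.26e-05). The endothelin gene Edn1 (-3.33, SE 0.36), the transferrin receptor Tfrc (-1.73), Bhlhe40 (-1.05) and Ndrg1 (-0.76) were lower. Plod2 and P4ha1 are also genes of collagen-making cells, and the mean of the 8 fibroblast markers was 9.58 to 12.41 in PASMC_Ctrl and 7.31 to 8.06 in AECII_Ctrl. The part of cell identity in these differences was not tested.

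Of 35 respiratory chain genes 12 were higher and 5 lower (median 0.07), where 31.3% of all genes tested were higher and 27.9% lower. The share of higher calls was thus near that of all genes. None of the 8 genes named here moved by 1 log2 unit. Ndufa1 (0.62), Cox8a (0.51), Sdhc (0.48) and Ndufa2 (0.37) were higher, and Uqcrfs1 (-0.48), Atp5a1 (-0.31), Sdhb (-0.30) and Uqcrc2 (-0.29) lower.

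The next comparisons asked what the extracts did within a cell type. In PASMC none of the 10 genes was called with either extract by limma, against a background of 0.0275% of 14545 genes in PASMC_18mg minus PASMC_Ctrl and 0% in PASMC_0mg minus PASMC_Ctrl. The background count with 18 mg/ml nicotine was 4 genes, all lower in PASMC_18mg and none of them in the lists used here: Uap1l1, Slc6a8, Kazn and Ctsk, named after their values were seen. At an unadjusted p under 0.05 there were 589 and 402 genes in these 2 comparisons, among them 2 and 0 of the members. Both comparisons use the same PASMC_Ctrl arrays. Arrays were fitted as independent, since the labels give no pairing by mouse. If conditions share mice, the spread between mice is part of the SEs below, and a paired fit could differ.

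All 10 differences from control were negative with each extract, with a median of -0.21 in PASMC_18mg and -0.18 in PASMC_0mg. Over all genes tested the medians were 0.01 and 0.00, and 48.2% and 48.7% of the genes were negative. The shared control arrays mean that the signs in the 2 comparisons are not separate evidence. Nor are the 10 signs within a comparison, because the genes correlated between PASMC arrays. Among Slc2a1, Slc16a3, Pdk1, Egln3, Pgam1 and Ndufa4l2 the 15 pairs had r of 0.44 to 0.90. The 12 pairs of these genes with Hk2 and Pfkp had r of -0.77 to -0.43.

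Pgk1 had 13.63, 13.74 and 13.86 as its lowest, median and highest value in PASMC_18mg, 13.69, 13.78 and 13.95 in PASMC_0mg, and 13.69, 13.94 and 13.99 in PASMC_Ctrl. All 8 PASMC_18mg arrays and 7 of 8 PASMC_0mg arrays lay below the PASMC_Ctrl mean, although the groups overlapped. The differences were -0.15 (SE 0.06, unadjusted p = 0.0221) and -0.11 (SE 0.06, unadjusted p = 0.0785), both with an adjusted p of 1.

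Egln3 was the other member with an unadjusted p under 0.05. It had 7.89, 8.54 and 8.70 in PASMC_18mg, 8.18, 8.71 and 8.79 in PASMC_0mg, and 8.19, 8.92 and 9.09 in PASMC_Ctrl. All 8 PASMC_18mg arrays and 7 of 8 PASMC_0mg arrays were below the PASMC_Ctrl mean. The differences were -0.33 (SE 0.15, unadjusted p = 0.0332) and -0.20 (SE 0.15, unadjusted p = 0.179), with an adjusted p of 1 in both.

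Slc16a3 differed by -0.28 in PASMC_18mg and -0.30 in PASMC_0mg (SE 0.18 each), with 7 of 8 arrays below the control mean in each. Pdk1 differed by -0.53 and -0.30 (SE 0.34 each), and 6 of 8 arrays were below the control mean in each. For Pgam1 the differences were -0.17 and -0.15 (SE 0.08 each). For Hk2 they were -0.22 and -0.15 (SE 0.12 each), for Pfkp -0.16 and -0.27 (SE 0.16 each), and for Slc2a1 -0.19 and -0.14 (SE 0.14 each). Ldha stayed nearest to 0 at -0.01 in PASMC_18mg, which turned to 0.02 with array weights, and at -0.07 in PASMC_0mg (SE 0.07 each). Ndufa4l2 differed by -0.43 and -0.36 with an SE of 0.78, so that its 95% intervals ran over -2.05 to 1.18 and -1.97 to 1.26. That interval allows a large change in either direction, and leaving out PASMC_0mg array 5 turned the second value to 0.18.

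Without the 3 PASMC arrays with low fibroblast markers no member was called either. Egln3 then differed by -0.39 in PASMC_18mg (unadjusted p = 0.011, adjusted p = 0.792), Pgk1 by -0.15 (unadjusted p = 0.0275, adjusted p = 0.962) and Ldha by 0.005. In the direct comparison of the 2 extracts, PASMC_18mg minus PASMC_0mg, no member was called (background 0%), the 10 differences lay between -0.23 for Pdk1 and 0.11 for Pfkp, and 282 genes had an unadjusted p under 0.05, none of them a member.

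Of the 138 other pathway genes tested in PASMC none was called with either extract. In PASMC_18mg 90 of them were negative and 48 positive (median -0.05), and in PASMC_0mg 88 and 50 (median -0.05). The smallest unadjusted p values among these and the members in PASMC_18mg belonged to Cox4i2 (-0.68, SE 0.25, unadjusted p = 0.0127), the clock repressor Bhlhe40 (-0.55, SE 0.21, unadjusted p = 0.0165) and the nuclear receptor Rora (-0.46, SE 0.18, unadjusted p = 0.0171), each with an adjusted p of 1. In PASMC_0mg they were Bhlhe40 (-0.47, unadjusted p = 0.037), the lipid droplet gene Hilpda (-0.26, unadjusted p = 0.0722) and Pgk1 itself, and in PASMC_18mg minus PASMC_0mg Bhlhe41 (0.58, unadjusted p = 0.00601), Pgam2 (-0.49, unadjusted p = 0.0706) and Nos2 (-0.43, unadjusted p = 0.076), all with an adjusted p of 1.

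**Figure D3:**
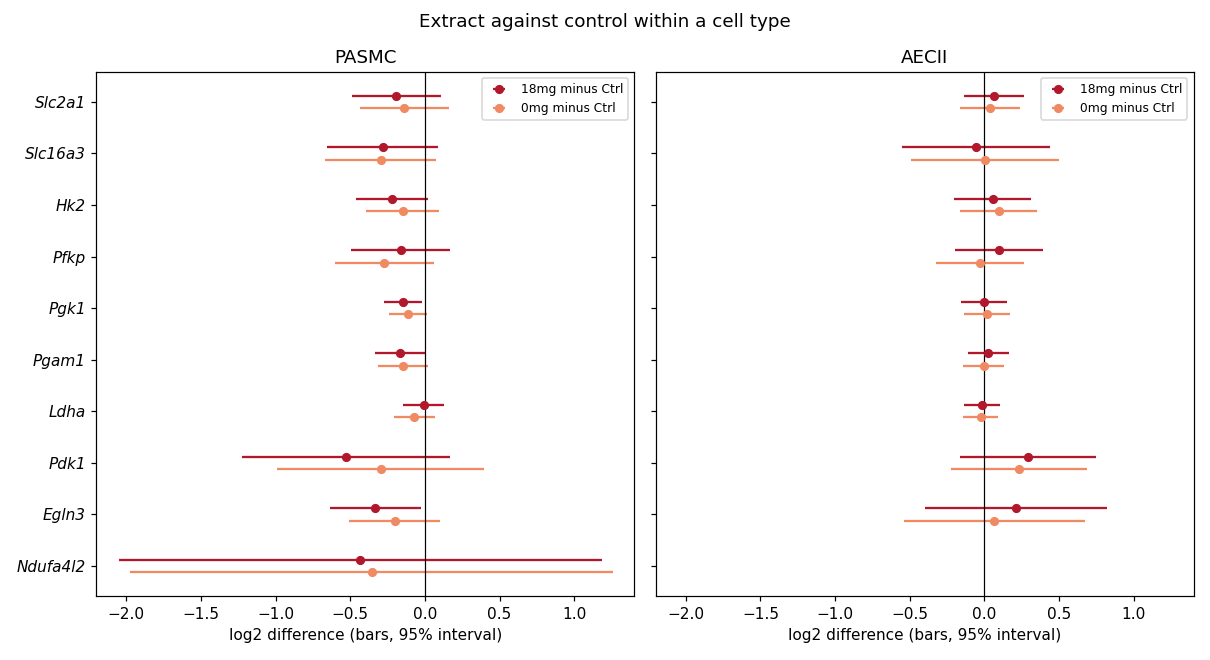
Log2 difference from control of each gene (horizontal axis) with its 95% interval, for the 18 mg/ml and the 0 mg/ml extract in PASMC (left) and AECII (right; Ndufa4l2 was too dim there to be tested). All 20 PASMC points lie below 0, Pgk1 and Egln3 in 18mg are the PASMC intervals that exclude 0, and every AECII interval includes 0.

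In AECII 9 of the 10 genes were bright enough to be tested, and none was called in any comparison of conditions (background 0% of 14477 genes in each). The counts at an unadjusted p under 0.05 were 341 genes in AECII_18mg minus AECII_Ctrl, 480 in AECII_0mg minus AECII_Ctrl and 447 in AECII_18mg minus AECII_0mg, with none of the members among them. The median difference of the 9 genes was 0.05 in AECII_18mg and 0.02 in AECII_0mg, with 6 positive and 3 negative in each. The largest was that of Pdk1, whose lowest, median and highest values were 4.51, 4.84 and 5.51 in AECII_18mg, 3.999, 5.06 and 5.33 in AECII_0mg and 4.01, 4.70 and 5.61 in AECII_Ctrl. It differed by 0.29 (95% interval -0.17 to 0.75) and 0.23 (-0.23 to 0.69), opposite in sign to PASMC. For Pgk1, Pgam1 and Ldha the intervals of both comparisons lay within -0.16 and 0.17, so larger changes of these 3 probes were outside their intervals.

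Ndufa4l2 was 2.10, 2.69 and 3.93 in AECII_18mg, 1.83, 2.82 and 4.01 in AECII_0mg and 2.04, 2.23 and 3.21 in AECII_Ctrl, all around the array median, so no change was read from them. Among the pathway genes the lactate carrier gene Slc16a1 had the smallest unadjusted p in AECII_18mg minus AECII_Ctrl (0.89, SE 0.25, unadjusted p = 0.00167, adjusted p = 1). Its means were 3.41 in AECII_18mg, 2.54 in AECII_0mg and 2.52 in AECII_Ctrl, close to background. Pfkfb2 (0.44, unadjusted p = 0.0164) and the pyruvate carboxylase gene Pcx (0.26, unadjusted p = 0.0235) followed it. In AECII_18mg minus AECII_0mg they were Slc16a1 (0.87, unadjusted p = 0.00207), Nos2 (-0.61, unadjusted p = 0.0459) and Pdk4 (-0.45, unadjusted p = 0.0459). In AECII_0mg minus AECII_Ctrl the ubiquitin ligase gene Siah2 (0.40, unadjusted p = 0.0156), Slc16a7 (-0.73, unadjusted p = 0.0295) and the chemokine receptor gene Cxcr4 (-0.48, unadjusted p = 0.044) came first. The adjusted p was 0.999 or 1 in all of these.

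Whether PASMC and AECII responded differently was tested directly, as the PASMC difference minus the AECII difference, and no member was called with either extract (background 0% of 14775 genes in both, with 382 genes at an unadjusted p under 0.05 for the 18 mg/ml extract and 393 for the 0 mg/ml extract). For Pdk1 this difference of responses was -0.82 (SE 0.41, unadjusted p = 0.0511) with the 18 mg/ml extract and -0.53 (SE 0.41, unadjusted p = 0.204) with the 0 mg/ml extract. For Pgam1 it was -0.19 (SE 0.10, unadjusted p = 0.0613) and -0.14 (SE 0.10, unadjusted p = 0.159), and for Egln3 -0.54 and -0.27 (SE 0.34 each). The adjusted p was 1 in each. The list genes with the smallest unadjusted p with the 18 mg/ml extract were Slc16a1 (-1.23, unadjusted p = 0.00443), Bhlhe40 (-0.60, unadjusted p = 0.0134) and Cox4i2 (-1.02, unadjusted p = 0.0138). With the 0 mg/ml extract they were Bhlhe40 (-0.58, unadjusted p = 0.017), Cxcr4 (0.70, unadjusted p = 0.0544) and Hif3a (-0.78, unadjusted p = 0.057). None of them was called, and Hif3a lay at background in AECII.

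The spread between arrays of a group differed widely among the genes, and in PASMC it was widest for Ndufa4l2. Its residual SD within PASMC groups was 1.64, at percentile 99.4 of the genes tested in PASMC, and its 24 PASMC values ran over 6.11 to 12.24. Pdk1 followed with a residual SD of 0.70 (percentile 87.1). At the other end stood Pgk1 (0.09, percentile 0.681), Ldha (percentile 1.83) and Pgam1 (percentile 6.62), which varied less than nearly all genes. Among the 9 genes tested in AECII Egln3 varied most (residual SD 0.61, percentile 85.1) and Ldha least (percentile 1.15). These spreads are those of the chosen probes. The chosen, brightest Ldha probe had an SD of 0.095 in AECII_Ctrl, and the dimmer probes 0.215 and 0.355. In PASMC_Ctrl the SDs were 0.104, 0.071 and 0.123 in the same order.

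Between PASMC arrays the genes fell into a set that varied together and a pair that went the other way. The correlations here are across 24 arrays of deviations from the group means, arrays of which some may share a mouse, and are given as a description. For Slc2a1, Slc16a3, Pdk1, Egln3, Pgam1 and Ndufa4l2, a set picked after the values were seen, the 15 pairs had r of 0.44 to 0.90, the highest for Slc16a3 with Pdk1. Each of these 6 correlated negatively with Hk2 and Pfkp (12 pairs, r of -0.77 to -0.43), while Hk2 and Pfkp correlated with each other at 0.69. The Hk2 promoter window held as many ACGTG matches as those of Slc16a3 and Pgk1. Whether such matches bear on these correlations was not tested. Without the 3 arrays with low fibroblast markers the ranges were 0.41 to 0.95 and -0.81 to -0.27 over 21 arrays. In AECII the 5 of these 6 that could be used had pair correlations of -0.46 to 0.60, with Egln3 negative to Slc16a3, so the PASMC pattern did not hold there as a block; the difference between the cell types was not tested.

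**Figure D4:**
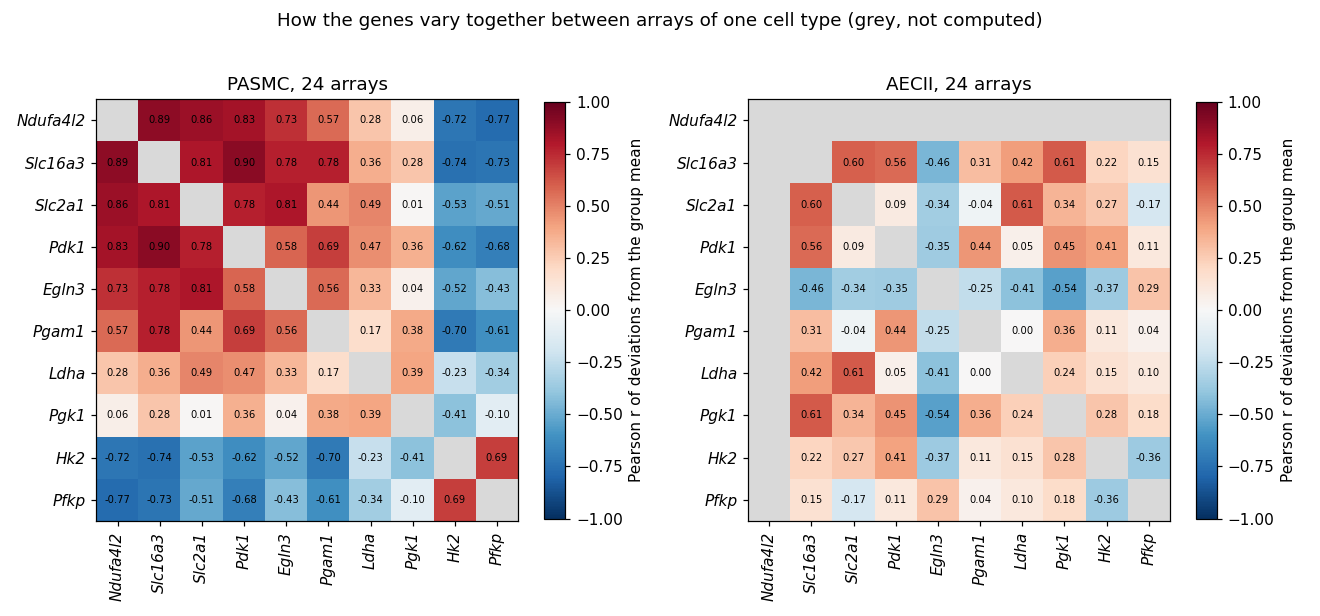
Pearson r between pairs of the 10 genes over 24 PASMC arrays (left) and 24 AECII arrays (right), computed on deviations from the mean of each group; grey cells were not computed. In PASMC the upper left block is positive (0.44 to 0.90 among its 6 genes) and Hk2 and Pfkp are negative to it (-0.77 to -0.43).

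Within each PASMC condition Ndufa4l2 was set against the other members and 9 marker genes, 54 relations in all. Each was over 8 arrays with exact permutation p values, two-sided and adjusted over the 54. Arrays of different conditions may share mice, so a relation seen in several conditions is not separate evidence from each. With Slc16a3 Pearson's r was 0.81 in PASMC_18mg (exact p = 0.0251, adjusted 0.0502), 0.89 in PASMC_0mg (exact p = 0.00062, adjusted 0.00535) and 0.96 in PASMC_Ctrl (adjusted exact p = 0.00268). Spearman's rho was 0.67 (exact p = 0.0831, adjusted 0.155), 0.91 (exact p = 0.00456, adjusted 0.0246) and 0.98 (exact p = 0.000397, adjusted 0.0205) in the same conditions. After the 2 arrays farthest from the Ndufa4l2 median were left out r was 0.75, 0.88 and 0.99. With Pdk1 r was 0.90, 0.72 and 0.90 in PASMC_18mg, PASMC_0mg and PASMC_Ctrl (adjusted exact p = 0.00905, 0.0807 and 0.00793), rho was 0.95, 0.83 and 0.88 (adjusted exact p = 0.0205, 0.0416 and 0.0301), and r without the 2 farthest arrays was 0.90, 0.97 and 0.95. With Slc2a1 r was 0.85, 0.85 and 0.93 (adjusted exact p = 0.0232, 0.00535 and 0.00535), rho was 0.62, 0.86 and 0.83 (adjusted exact p = 0.2, 0.034 and 0.0416), and r without the 2 farthest arrays was 0.79, 0.74 and 0.87. Hk2 and Pfkp were negative in each condition and passed in PASMC_0mg alone (r of -0.892 and -0.923, adjusted exact p = 0.00793 each). Pgam1 passed in PASMC_Ctrl alone (r 0.894, adjusted exact p = 0.00793). Egln3 passed by r in PASMC_0mg and PASMC_Ctrl (0.78 and 0.832, adjusted exact p = 0.0296 and 0.0287) but nowhere by rho. Pgk1 (-0.385, 0.165 and 0.282) and Ldha (0.393, 0.097 and 0.302) passed in no condition.

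Some markers of cell identity moved with Ndufa4l2 as well. The fibroblast and progenitor receptor gene Pdgfra had r of 0.89 in PASMC_18mg, 0.92 in PASMC_0mg and 0.92 in PASMC_Ctrl with it (adjusted exact p = 0.00535 in each), rho of 0.91, 0.86 and 0.86 (adjusted exact p = 0.0246, 0.034 and 0.034) and r of 0.83, 0.81 and 0.93 without the 2 farthest arrays. For the other fibroblast markers Col1a1, Dcn and Fap r lay between 0.74 and 0.95, and 4 of their 9 relations passed the adjustment by Pearson's r and 1 by Spearman's rho (exact permutation tests). Without the 2 farthest arrays their r ran over -0.50 to 0.71, so these relations rested on those arrays in part. Acta2 went the other way with r of -0.81, -0.75 and -0.85 (adjusted exact p = 0.0249, 0.0346 and 0.0158), rho of -0.91, -0.91 and -0.88 (adjusted exact p = 0.0246, 0.0246 and 0.0301) and r of -0.74, -0.87 and -0.80 without the 2 farthest arrays. The proliferation gene Mki67 had r of 0.90, 0.85 and 0.90 (adjusted exact p = 0.0139, 0.00793 and 0.00905), rho of 0.79, 0.83 and 0.93 (adjusted exact p = 0.0628, 0.0416 and 0.0246) and r of 0.75, 0.67 and 0.80 without the 2 farthest arrays. For Sftpc r was 0.12, 0.11 and -0.07 (adjusted exact p = 0.867, 0.892 and 0.904), which did not pass the test, nor did the macrophage gene Marco (r of -0.01, 0.07 and -0.13). The smooth muscle gene Cnn1 had r of -0.67, -0.69 and -0.81 (adjusted exact p = 0.106, 0.0756 and 0.0306).

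As means over marker lists, described without a test, the 8 fibroblast markers had r with Ndufa4l2 of 0.93, 0.97 and 0.93 in PASMC_18mg, PASMC_0mg and PASMC_Ctrl. The 10 smooth muscle markers had -0.69, -0.77 and -0.81, and the 8 epithelial markers -0.85, -0.91 and -0.95. After the 2 arrays farthest from the Ndufa4l2 median were left out, these r were 0.59, 0.82 and 0.87 for fibroblast, -0.31, -0.67 and -0.95 for smooth muscle and -0.67, -0.88 and -0.90 for epithelial markers. The part of the cell mixture in the array-to-array spread of these genes was not tested.

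**Figure D5:**
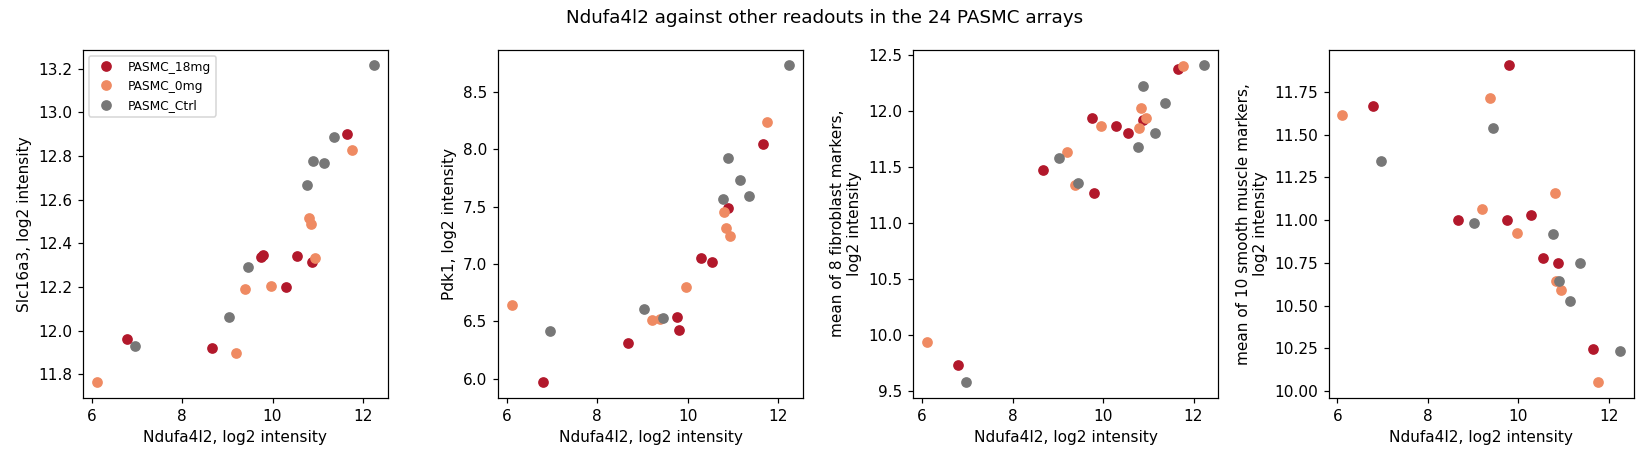
Ndufa4l2 log2 intensity (horizontal axis) against Slc16a3, Pdk1, the mean of 8 fibroblast markers and the mean of 10 smooth muscle markers in the 24 PASMC arrays (points, coloured by condition). The 3 arrays with Ndufa4l2 of 6.11 to 6.96 have fibroblast marker means of 9.58 to 9.94, and the other 21 have 11.27 to 12.41.

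The genes whose deviations were most like the mean of the members over the 24 PASMC arrays were Mmp3 (r 0.93), Hgf (0.91), Zfp36l1 (0.91), C2 (0.91) and Plxdc2 (0.90), out of 14528 compared. Those most like Ndufa4l2 alone were Tmem119 (0.99), Cpxm1 (0.99), Cenpm (0.99), Gda (0.98) and Osmr (0.98). Without the 3 arrays with low fibroblast markers Mmp3 (0.94) remained among the first 5 for the members and Cpxm1 (0.98) for Ndufa4l2. In AECII Penk (0.88), Cavin2 (0.86), Tnfrsf21 (0.83), Slc6a12 (0.83) and Golm1 (0.81) were most like the mean of the 9 members used, out of 14466.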

How the data were processed

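RNA of each sample was hybridised to single-colour (Cy3) Agilent arrays, per the labels' protocols. The deposited matrix holds log2 values of 62976 features on 48 arrays, made by the authors. Of the authors' tools only limma is named, per the submitters' processing notes, with no version given, and the coinciding medians and quartiles of the arrays show that the values had been quantile normalised. No count of molecules underlies an array value, so the number of arrays limits the precision. Of the features 31465 carry a gene name, 29050 of them matched by accession to RefSeq symbols (GRCm38.p6), which gave 20738 genes, and 6171 genes had several probes, of which the one with the highest mean was used. Genes entered a fit when they averaged above 2.73 in its arrays, which is the 30th percentile among named features. The fits used lmFit and eBayes of limma 3.58.1 in R 4.3.3 (with statmod 1.5.0), a coefficient for each group, and 48 arrays for cell type contrasts and differences of responses or the 24 arrays of a cell type for conditions, two-sided, with Benjamini-Hochberg adjustment over all genes tested. Groups came from the labels alone. The labels number arrays 1 to 8 in each group, and these numbers did not pair the arrays: same-numbered arrays of different conditions deviated together with a median r of 0.04 in AECII and 0.03 in PASMC. Whatever their numbers, the highest r between arrays of different conditions was 0.32 in AECII and 0.67 in PASMC. Some arrays may thus share a mouse under other numbers. All arrays were fitted as independent.

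Named genes are the 10 members, up to 4 genes per direction with the largest called difference from each of 6 pathway lists, 7 further pathway genes whatever their values, the 3 genes with the smallest p in each treatment comparison and the 5 most like the members. The members and lists were chosen with earlier results of these data known. Of 152 listed pathway genes 147 had a probe. Alternatives were a block for the array number, median centring, the 50th percentile as the filter or none, only the arrays compared, the mean of all probes, array weights, a robust eBayes with a trend, PASMC arrays with Sftpc at or below 6 and leaving out each array. Leaving out 3 PASMC arrays with low fibroblast markers was added after the data were seen. The fit was tested on simulated data.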

Additional observations from a re-analysis of the deposited data

Results flagged for a closer look

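Of 60 sets of 8 arrays (10 genes in 6 groups) 7 held an array far from the other 7 by Dixon's criterion, and chance alone flags about 1 in 20 sets. In PASMC, Ndufa4l2 was lowest in PASMC_0mg array 5 at 6.11, with the next array at 9.20. That array is also 1 of the 3 with a fibroblast marker mean under 10. In PASMC_18mg array 6 Slc16a3 was highest at 12.90 (next 12.35) and Pfkp lowest at 6.17 (next 6.92), the direction in which these genes varied between the other PASMC arrays.

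In AECII, Slc2a1 was highest in AECII_18mg array 5 at 10.79 (next 10.60), and Ldha highest in AECII_18mg array 3 at 14.92 (next 14.76). Egln3 was lowest in AECII_18mg array 7 at 4.96 (next 6.12), and Pdk1 lowest in AECII_0mg array 3 at 3.999 (next 4.70).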

How the results depend on the processing

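Under the alternatives other than leaving out an array, 1676 recomputed differences of single genes kept their direction and their side of the threshold, 13 turned sign, 4 passed it newly and 3 no longer did. Beside Ndufa4l2, which had to differ, the 9 other members stayed called in PASMC_Ctrl minus AECII_Ctrl under all of these but 1. The exception was Hk2 without the PASMC arrays with Sftpc above 6. No member was called in any treatment comparison under any of these alternatives. The 4 genes called in PASMC_18mg minus PASMC_Ctrl became 0 with the array number as a replicate block, 0 with only the arrays compared or without the arrays with Sftpc above 6, 1 with no filter or the mean of all probes, 8 with the 50th percentile, 13 with array weights, and 7 without the 3 arrays with low fibroblast markers. The last setting and array weights each gave 1 gene in PASMC_0mg minus PASMC_Ctrl and 1 in the difference of responses to the 18 mg/ml extract, against 0. The replicate block changed no other call of the members. Leaving out 1 array gave 1 to 4 genes in PASMC_18mg minus PASMC_Ctrl and 0 to 1 in PASMC_0mg minus PASMC_Ctrl. The cause of these changes was not tested.

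Signs turned in 13 uncalled differences. With the mean of all probes Ldha became 0.007 in AECII_0mg minus AECII_Ctrl, 0.005 in AECII_18mg minus AECII_Ctrl, -0.002 in AECII_18mg minus AECII_0mg and -0.059 in the difference of responses to the 18 mg/ml extract, and Pfkp -0.083 in PASMC_18mg minus PASMC_0mg. Median centring gave Slc16a3 -0.001 in AECII_0mg minus AECII_Ctrl. Array weights gave Hk2 -0.007 in AECII_18mg minus AECII_Ctrl, Ldha 0.023 in PASMC_18mg minus PASMC_Ctrl and Slc16a3 -0.019 in PASMC_18mg minus PASMC_0mg. In the last comparison Pfkp became -0.077 and Pgam1 0.047 without the arrays with Sftpc above 6, and Slc16a3 -0.013 without the 3 arrays with low fibroblast markers, which also gave Ldha 0.005 in PASMC_18mg minus PASMC_Ctrl.

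Leaving out 1 array turned the sign of 25 uncalled differences, given here as the lowest and highest value. In AECII_0mg minus AECII_Ctrl they were Slc2a1 (-0.018 to 0.092), Slc16a3 (-0.11 to 0.12), Pfkp (-0.088 to 0.037), Pgk1 (-0.013 to 0.038), Pgam1 (-0.024 to 0.010) and Egln3 (-0.10 to 0.20). In AECII_18mg minus AECII_0mg they were Slc2a1 (-0.029 to 0.080), Slc16a3 (-0.19 to 0.057), Hk2 (-0.091 to 0.011), Pgk1 (-0.051 to 0.014), Ldha (-0.018 to 0.025) and Pdk1 (-0.072 to 0.13). In AECII_18mg minus AECII_Ctrl they were Slc16a3 (-0.18 to 0.059), Hk2 (-0.028 to 0.11), Pgk1 (-0.033 to 0.032), Pgam1 (-0.003 to 0.060) and Ldha (-0.044 to 0.003). In PASMC_18mg minus PASMC_0mg they were Slc2a1 (-0.10 to 0.019), Slc16a3 (-0.074 to 0.092), Hk2 (-0.14 to 0.000), Pgam1 (-0.057 to 0.016) and Ndufa4l2 (-0.61 to 0.35). The others were Ndufa4l2 in PASMC_0mg minus PASMC_Ctrl (-0.82 to 0.18), and Ldha in PASMC_18mg minus PASMC_Ctrl (-0.039 to 0.019) and in the difference of responses to the 18 mg/ml extract (-0.020 to 0.037).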
